A study of Mus musculus with 14 samples.

Results

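Carotid arteries of male C57BL/6J mice lacking Rbp7 were compared with those of wild-type mice without drug, in 7 of the 14 RNA-seq libraries of the series. The 4 knockout (KO) and 3 wild-type (WT) libraries all came from exposure to the solvent DMSO for 24 h, and were taken by the genotype and treatment in their titles. The other 7 libraries, 4 KO and 3 WT, came from exposure to 10 µM rosiglitazone, a drug that activates the nuclear receptor PPARγ, for the same time, and served here as libraries the DMSO comparison had not used. The labels do not settle whether the exposure was of dissected arteries or of living mice. The age of the mice, the way the Rbp7 allele was disrupted and whether libraries came from separate animals were not given in the sources used here, so p-values measure only library-to-library spread, which may be technical.

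Rbp7 encodes retinol-binding protein 7, a small cytosolic protein of the fatty acid-binding protein family that carries retinol inside cells. It is known from the endothelium of blood vessels and from adipose tissue, and is counted among the targets of PPARγ, which acts as a heterodimer with the retinoid X receptor. RefSeq places the gene on chromosome 4 at 149449687 to 149466462 (GRCm38.p6). The table measures transcripts under UCSC-style identifiers and does not pair them with genes, and 0 of its 63244 identifiers were found in the gene tables at hand. Transcripts are therefore named by identifier, no function can be attached to them, and neither the level of Rbp7 nor markers of arterial cell types could be read. The check of the genotype and tissue labels was thus not made.

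Values are TPM, a transcript's length-corrected share of its library scaled to the same total in each. Read depth cannot be recovered from TPM and is unknown here. Of the 63244 transcripts, 27124 had at least 1 TPM in at least 3 of the 7 DMSO libraries and were tested. The identifiers from uc008vot to uc008vwh, a stretch of 174 transcripts in the table, were kept apart. In that stretch 82 passed the filter, 62 had values above 0 but did not pass, and 30 were listed at 0 in all 7 libraries. The stretch was chosen with earlier results of these data known, so its counts describe it and carry no test of their own. The table gives no positions, and whether neighbours in identifier order are neighbours in the genome was not tested.

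The 7 libraries had between 24789 and 27686 transcripts at 1 TPM or more. KO replicate 4 had the most, and its 2 most abundant transcripts held 33.2% of all TPM against 41.9% to 46.6% in the other 6. The groups did not differ in either measure beyond their spread (exact permutation tests over 35 splits, two-sided, p = 0.771 and p = 0.571). The WT libraries carry sample numbers 7, 9 and 11, KO replicates 1 and 2 carry 3 and 5, and KO replicates 3 and 4 carry 19 and 20. What the numbers stand for is not stated, and 19 and 20 hold KO libraries alone. Without these 2 libraries, 15 transcripts were called in place of the 17 given next, and 6 were called in both.

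Few transcripts passed the adjusted threshold between KO and WT arteries exposed to DMSO. With limma and Benjamini-Hochberg adjustment over all 27124 transcripts, 17 passed an adjusted p of 0.05, or 0.0627%. Of these, 6 were higher in KO (0.0221%) and 11 were lower (0.0406%). Inside the identifier stretch 2 of 82 were called, 1 in each direction, and outside it 15 of 27042, of which 5 were higher and 10 lower in KO. Among the 15, uc033igm.1 repeats the values of uc008vsh.3, which was called inside. With identical rows merged, 14 were called outside and 2 inside. The calls fell on transcripts of low abundance, with a mean of at most 6.90 TPM over the 7 libraries. All were large, the smallest being 1.63 on the log2 scale. Fold changes are differences of log2(TPM + 1), which understates the change of low transcripts. The number of calls moved with the library left out. It was 4 without WT replicate 1 or 2, 2 without WT replicate 3 and 8 without KO replicate 1. Without KO replicates 2, 3 and 4 it was 15, 17 and 14, of which 9, 9 and 11 were among the 17.

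**Figure D1:**
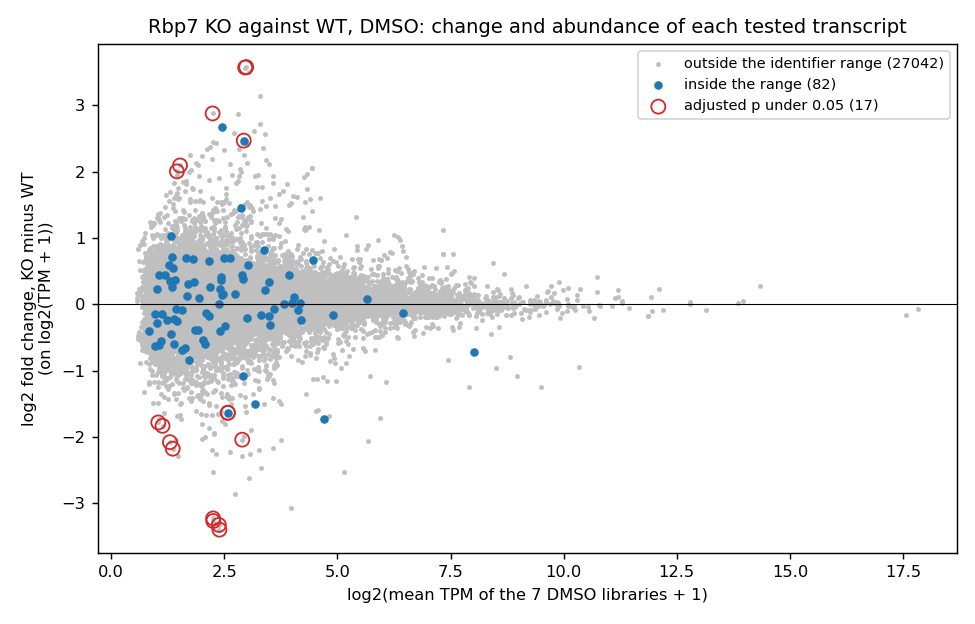
Log2 fold change (KO minus WT, DMSO, on log2(TPM + 1)) of each of the 27124 tested transcripts against log2 of its mean TPM + 1 over the 7 libraries. Grey points are the 27042 transcripts outside and blue points the 82 inside the identifier stretch. Red rings mark the 17 called transcripts, which all have means of at most 6.90 TPM.

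Without adjustment, 974 transcripts had p under 0.05, which is 3.59% of those tested, and of these 662 were higher (2.44%) and 312 lower (1.15%) in KO. This split followed KO replicate 4 and the scaling. It was 505 higher and 552 lower without that library, and 562 higher and 648 lower after median-of-ratios scaling. The median log2 fold change of all tested transcripts was 0.08 as deposited and -0.01 after that scaling.

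Among the transcripts of the stretch, uc008vwh.1 was the called one that was higher in KO. It measured 1.09, 0.93 and 1.23 TPM in the WT libraries and 11.0, 14.7, 9.77 and 7.55 TPM in the KO libraries. The groups lay far apart, with every KO library above 7 TPM. The mean was 9.96 times as high in KO (10.8 ± 3.00 TPM, SD, n = 4, against 1.08 ± 0.15 TPM, SD, n = 3). On the log2 scale the change was 2.47 (SE 0.22, limma adjusted p = 0.0120). In the rosiglitazone libraries it stood at 0.75, 2.33 and 2.19 TPM in WT and at 14.3, 18.2, 12.4 and 15.9 TPM in KO. The groups again did not overlap, and the log2 fold change was 2.60 (SE 0.26, limma adjusted p = 0.0220). The DMSO call of this transcript was lost without WT replicate 1 (adjusted p = 0.0807), 2 (0.0783) or 3 (0.0644) or KO replicate 1 (0.0517). In these runs the log2 fold change was 2.47, 2.41, 2.52 and 2.45, and the SE was 0.26 to 0.27.

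Transcript uc008vsh.3 was the called member of the stretch that was lower in KO. Its WT values were 7.52, 8.92 and 9.72 TPM and its KO values 2.16, 1.81, 1.68 and 2.97 TPM. WT was 4.05 times as high in the mean (8.72 ± 1.11 TPM, SD, n = 3, against 2.15 ± 0.58 TPM, SD, n = 4). Its change on the log2 scale was -1.63 (SE 0.20, limma adjusted p = 0.0461). With rosiglitazone the 3 WT values, 7.59, 6.88 and 6.71 TPM, again lay above the 4 KO values, 2.22, 1.44, 2.11 and 2.37 TPM. That difference of -1.42 (SE 0.18) did not pass (adjusted p = 0.0716). Its DMSO call stood close to the threshold. Leaving out any 1 library other than KO replicate 4 ended it, with adjusted p between 0.111 (KO replicate 3) and 0.242 (WT replicate 2). It was 0.158 without WT replicate 1, 0.233 without WT replicate 3, 0.1236 without KO replicate 1 and 0.1239 without KO replicate 2. The log2 fold change in these runs lay between -1.56 and -1.73.

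No other member passed the threshold. In each direction, the member with the smallest p among those not called is given here. Transcript uc008vtf.1, on the higher side, had 2.27, 2.34 and 3.21 TPM in WT and 10.0, 6.86, 7.57 and 11.5 TPM in KO, so that the groups did not overlap (log2 fold change 1.45, SE 0.21, limma adjusted p = 0.118). Transcript uc008vot.2, on the lower side and the most abundant of the 82, had 309, 339 and 343 TPM in WT and 194, 193, 194 and 222 TPM in KO. Here 3 of the KO libraries lay within 1.3 TPM of each other and replicate 4 stood above them (log2 fold change -0.72, SE 0.09, adjusted p = 0.0599). Median-of-ratios scaling brought both past the threshold (adjusted p = 0.0397 and 0.0452). With rosiglitazone both kept their direction with no overlap of the groups. Transcript uc008vtf.1 measured 2.51 to 3.95 TPM in WT and 8.10 to 9.07 TPM in KO, and uc008vot.2 measured 255 to 287 TPM in WT and 152 to 179 TPM in KO. Between these 2 by p stood uc008vqa.2, named after its values were seen, which was lower in KO without overlap in both treatments but not called (log2 fold change -1.72, SE 0.24, limma adjusted p = 0.0826). Transcript uc008vwd.1, also named afterwards, had the largest change of the stretch but was not called in DMSO (log2 fold change 2.67, SE 0.42, limma adjusted p = 0.167). With rosiglitazone it was called (2.88, limma adjusted p = 0.0220), and its groups did not overlap in either treatment.

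**Figure D2:**
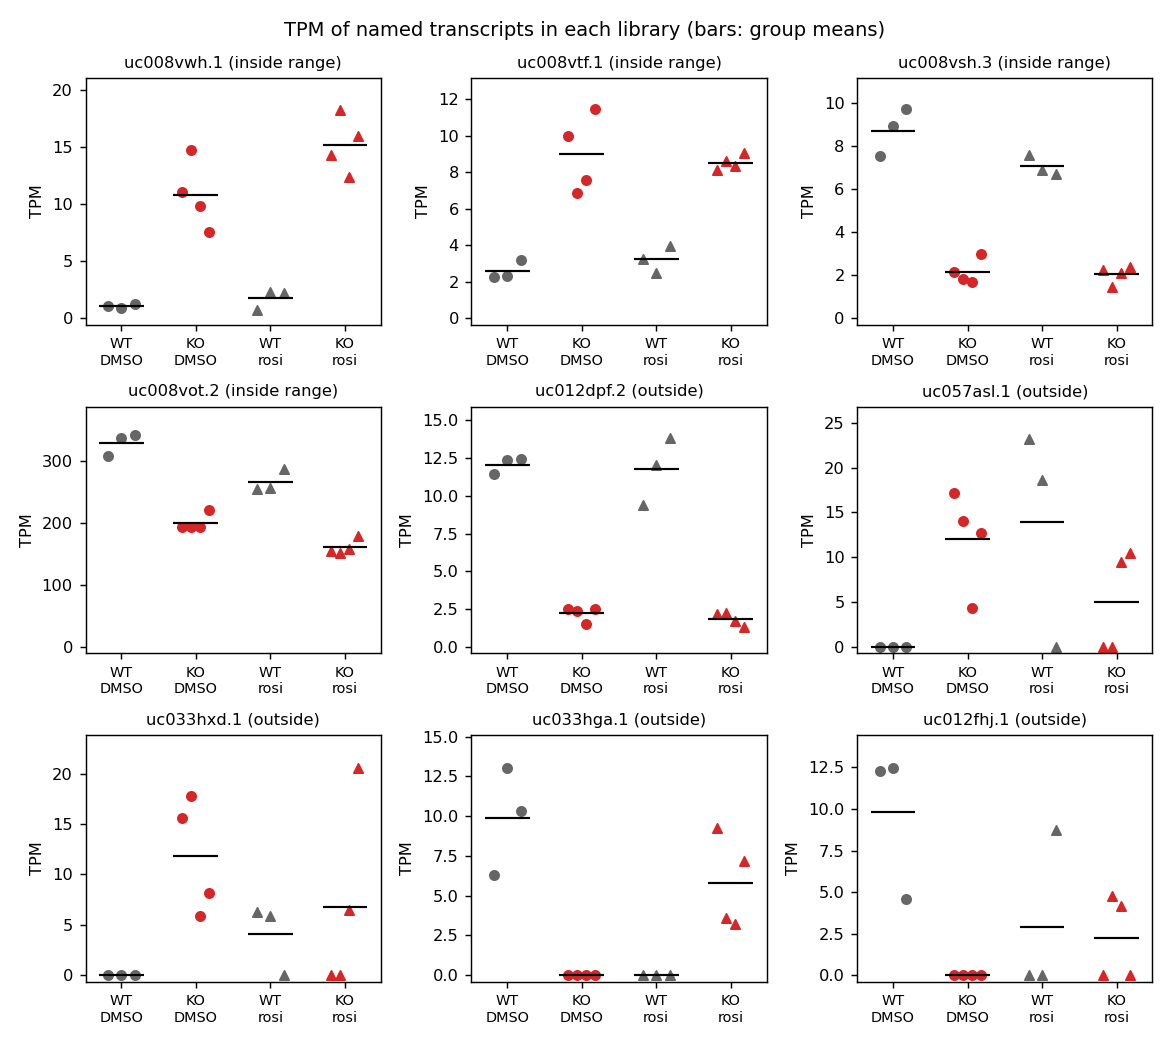
TPM of 9 transcripts in every library, by genotype and treatment (circles: DMSO, triangles: rosiglitazone, grey: WT, red: KO, bars: group means). In the top row, in uc008vot.2 and in uc012dpf.2 the genotypes are apart in both treatments. In the last 4 panels they are apart in DMSO, for which these transcripts were chosen. With rosiglitazone they overlap in uc057asl.1, uc033hxd.1 and uc012fhj.1 and are reversed in uc033hga.1.

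As a whole, the stretch held a larger share of differing transcripts than the table. At an unadjusted p under 0.05, 20 of its 82 tested members differed, 24.4% against 3.59% of all tested transcripts, with 10 higher and 10 lower in KO. In 20 of the 82 the KO and WT values did not overlap, against 4.96% of all tested transcripts. The median size of the change, without regard to sign, was 0.37 on the log2 scale inside and 0.16 over all transcripts. The median change with sign was 0.01, so the members did not shift in 1 direction. The 20 differing members ranged from 0.97 to 256 TPM in mean level and from 0.59 to 2.67 in the size of their log2 fold change. When the stretch was divided in order into 3 parts of like size, they numbered 6, 10 and 4. Without KO replicate 4, 25 of the 82 were under the same p, 30.5%, and without KO replicate 3 it was 15, 18.3%.

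**Figure D3:**
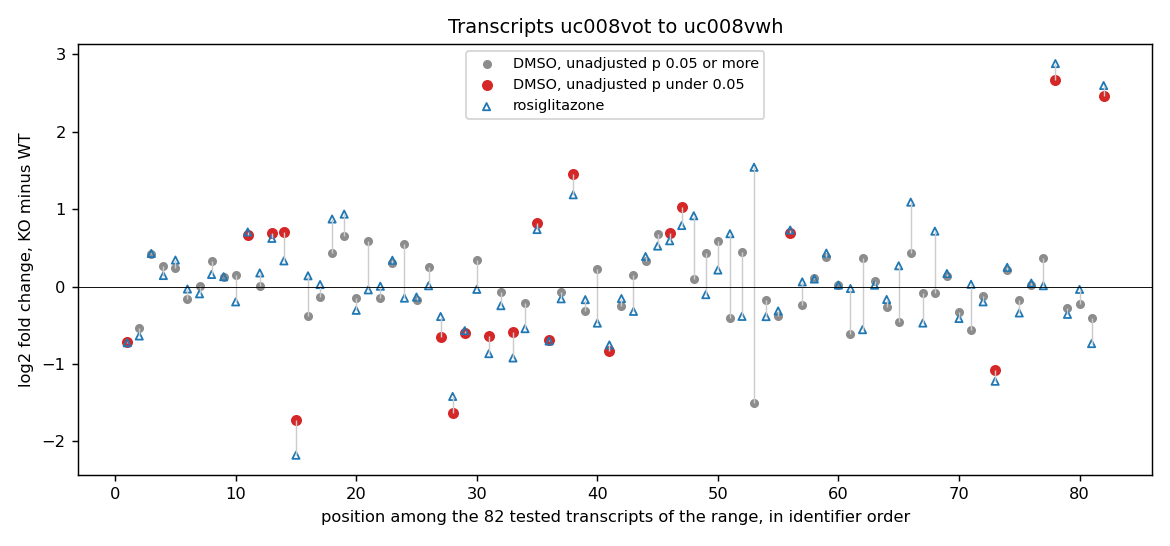
Log2 fold change (KO minus WT) of the 82 tested transcripts from uc008vot to uc008vwh in identifier order. Filled points are DMSO, red where the unadjusted p was under 0.05 (20 members), and open triangles are rosiglitazone, joined to the DMSO point by a line. The red points and their triangles lie on the same side of 0 for all 20.

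The tested transcripts were divided in identifier order into whole windows of 82 aligned to the stretch, leaving out those at the ends that filled no window. The other 329 windows held a median of 3 and at most 10 transcripts with an unadjusted p under 0.05. Because the stretch was chosen with earlier results of these data known, its standing above the other windows is a description and not a test. The windows just before and just after the stretch held 4 and 7. The transcripts at its edges were as follows. The first tested member outside on the lower side, uc008vos.2, had 35.3, 39.2 and 62.3 TPM in WT and 15.4, 11.6, 11.1 and 14.8 TPM in KO, so the genotypes were also apart just beyond this edge. With rosiglitazone its WT values were 53.8, 18.1 and 48.4 TPM and its KO values all lay below them. The one before it, uc008voq.1, had 4.96 to 5.93 TPM in WT and 5.66 to 7.24 TPM in KO. On the upper side, next to uc008vwh.1, transcript uc008vwi.1 had 4.58 to 5.69 TPM in WT and 5.36 to 8.33 TPM in KO, and uc008vwl.1 had 14.7 to 19.3 TPM in WT and 18.4 to 21.3 TPM in KO. In these 3 transcripts the genotypes overlapped. Just inside the edges, uc008vox.1 had 3.06 to 5.17 TPM in WT and 1.48 to 3.07 TPM in KO, and uc008vwg.2 had 0.51 to 1.62 TPM in WT and 0.12 to 1.11 TPM in KO, and both overlapped.

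**Figure D4:**
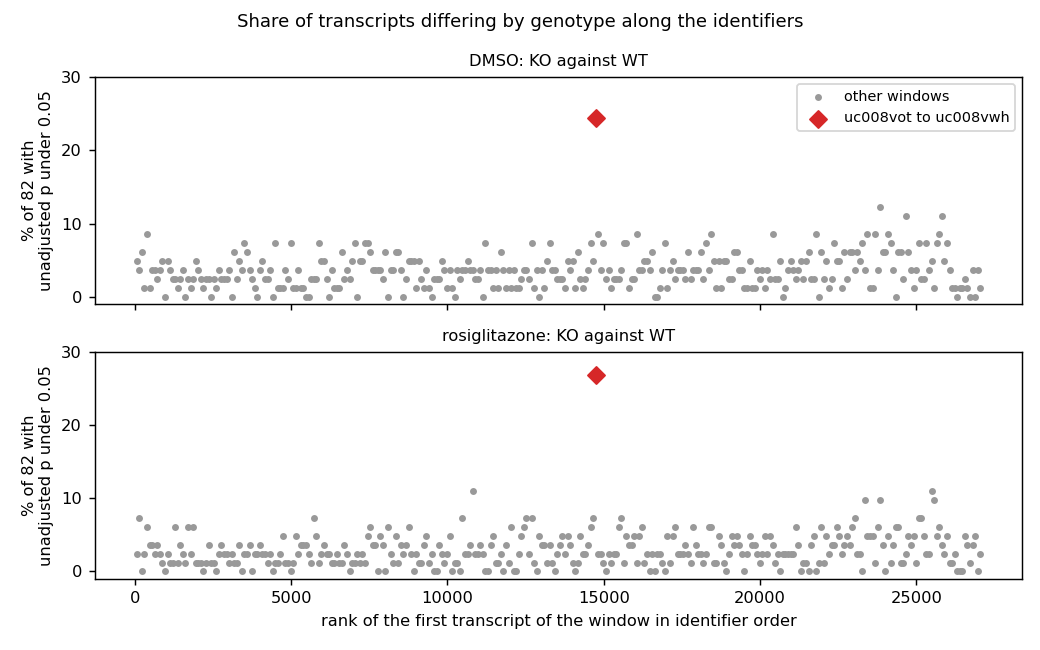
Percentage of the 82 transcripts in each window of consecutive identifiers that had an unadjusted p under 0.05 for KO against WT, in DMSO (top) and rosiglitazone (bottom). The x axis is the rank of the first transcript of the window in identifier order. The red diamond is the window from uc008vot to uc008vwh, at 24.4% in DMSO and 26.8% in rosiglitazone. That window was chosen with earlier results of these data known.

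The members of the stretch were then read in the rosiglitazone libraries, which share no library with the DMSO comparison but were also known when the stretch was chosen. Of the 20 members with an unadjusted p under 0.05 in DMSO, 20 had the same sign with rosiglitazone and 17 were under the same p. In all, 22 of the 82 were under that p with rosiglitazone, 26.8% against 2.97% of all tested transcripts, and 19 had groups that did not overlap, against 3.36%. Outside the stretch, 621 of the 954 transcripts under that p in DMSO had the same sign with rosiglitazone, 65.1%, where 63.2% of all outside transcripts had the same sign whatever their p. Among those 954, 62 were under the p in both treatments with the same sign and 18 with opposite signs.

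Outside the stretch, the largest called changes were of transcripts listed at 0 in every library of 1 genotype. Transcript uc057asl.1 was listed at 0 in all 3 WT libraries and had 17.2, 14.04, 4.38 and 12.7 TPM in KO (log2 fold change 3.57, SE 0.39, limma adjusted p = 0.0305). Transcript uc033hxd.1 was likewise listed at 0 in WT and had 15.6, 17.8, 5.92 and 8.17 TPM in KO, and its log2 fold change was 3.57 (SE 0.35, adjusted p = 0.0166). In the other direction, uc033hga.1 had 6.33, 13.1 and 10.3 TPM in WT and was listed at 0 in all 4 KO libraries. It changed by -3.40 on the log2 scale (SE 0.25, limma adjusted p = 0.0085). Transcript uc012fhj.1 had 12.3, 12.5 and 4.60 TPM in WT and was listed at 0 in KO (log2 fold change -3.32, SE 0.33, adjusted p = 0.0166). No fold of TPM can be given against a group at 0, and a value listed at 0 can be an estimate to which no reads were assigned. Each of these calls was lost when single libraries were left out. For uc057asl.1 these were all but KO replicate 3 (adjusted p from 0.0687 to 0.153). For uc033hxd.1 these were each WT library and KO replicates 1 and 4 (0.0517 to 0.101), for uc033hga.1 WT replicate 3 (0.0624), and for uc012fhj.1 WT replicates 1 and 2 and KO replicates 1, 3 and 4 (0.0503 to 0.104). When the DMSO difference was fitted over all 14 libraries, uc057asl.1 (limma adjusted p = 0.990), uc033hxd.1 (0.949) and uc012fhj.1 (0.656) were not called. Transcript uc033hga.1 was still called in that fit (0.000597).

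With rosiglitazone the values of these 4 transcripts no longer separated the genotypes in the DMSO direction. Transcript uc057asl.1 then had 23.2, 18.6 and 0 TPM in WT and 0, 0, 9.50 and 10.5 TPM in KO, and uc033hxd.1 had 6.24, 5.91 and 0 TPM in WT and 0, 0, 6.47 and 20.6 TPM in KO. Both were present and listed at 0 within each genotype. Transcript uc012fhj.1 was listed at 0 in 2 of 3 WT and 2 of 4 KO libraries. Transcript uc033hga.1 was reversed, listed at 0 in all WT libraries and at 9.24, 3.58, 3.24 and 7.18 TPM in KO. The difference between treatments in its genotype effect was 6.06 on the log2 scale (SE 0.42, limma interaction adjusted p = 5.1e-05), and that of the other 3 did not pass (adjusted p = 1.00). These 4 were named for their DMSO differences and passed the filter through 1 DMSO group alone. The interaction reuses those DMSO values, so its p describes chosen transcripts and is no separate test.

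Of the 17 called transcripts, 13 were of this kind, with at most 0.19 TPM in every library of 1 DMSO group. They were 5 of the 6 higher and 8 of the 11 lower ones, and all 13 lay outside the stretch. This division, at 0.2 TPM, was made after the values had been seen. A transcript at 0 in 1 group passes the filter through the other group alone, so among those that passed, such a transcript had to differ. With rosiglitazone 8 of the 13 had the same sign, where 63.2% of all tested transcripts did. An unadjusted p under 0.05 was reached by 1 of the 13 in the same direction and 1 in the opposite direction, against 2.97% of all tested transcripts in either direction. In the direction seen in DMSO their log2 fold changes had a median of 2.88 there and of 0.28 with rosiglitazone. In 10 of the 13, libraries of a single rosiglitazone group held both values under 0.2 TPM and values of at least 1 TPM. Within the DMSO groups a narrower mixture was counted, with 1 library listed at exactly 0 and another at 1 TPM or more. It was found in 941 tested transcripts (3.47%) in WT and in 1342 (4.95%) in KO. The share of all tested transcripts with the wider mixture in the rosiglitazone groups is not given here.

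The other 4 called transcripts had at least 0.2 TPM in all 7 DMSO libraries, and all 4 kept their direction with rosiglitazone with no overlap of the groups. Of all tested transcripts, 63.2% had the same sign in both treatments, and 3.36% did not overlap with rosiglitazone in either direction. Of these, uc008vwh.1 and uc008vsh.3 lie in the stretch. Another, uc033igm.1, has the same values as uc008vsh.3 in all 14 libraries and is no separate measurement, so the 17 calls are 16 distinct rows. The last, uc012dpf.2, lies outside the stretch and is described here because it was called in both treatments, a choice made after its values were seen. It had 11.4, 12.4 and 12.4 TPM in WT and 2.49, 2.38, 1.49 and 2.47 TPM in KO, which is 5.47 times as high in WT (log2 fold change -2.04, SE 0.18, limma adjusted p = 0.0120). With rosiglitazone it had 9.38, 12.1 and 13.8 TPM in WT and 2.18, 2.27, 1.71 and 1.29 TPM in KO (log2 fold change -2.16, SE 0.21, adjusted p = 0.0220). Its DMSO call was lost without WT replicate 1 (adjusted p = 0.0807), 2 (0.0872) or 3 (0.0811). The log2 fold change in these runs was -2.08, -2.02 and -2.02, with an SE of 0.23. In the rosiglitazone libraries 9 of the 27124 transcripts were called, 0.0332%, and uc008vwh.1 and uc012dpf.2 were the 2 called in both treatments. The count of 9 moved with single rosiglitazone libraries. It was 8, 4 and 2 without WT replicates 1, 2 and 3, and 13, 1, 0 and 0 without KO replicates 1, 2, 3 and 4. In the runs with 0 calls, the rosiglitazone calls of uc008vwh.1, uc012dpf.2 and uc008vwd.1 were lost too.

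**Figure D5:**
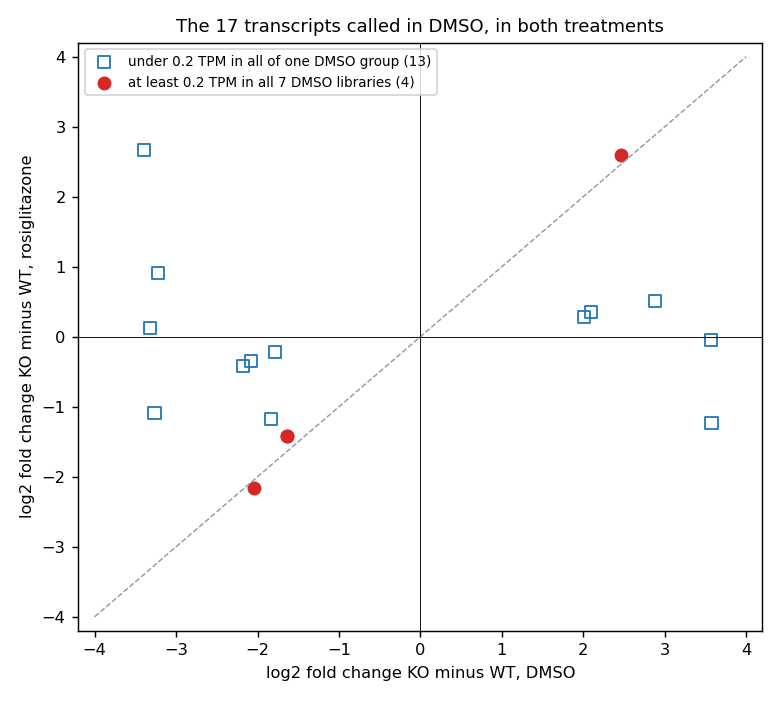
Log2 fold change (KO minus WT) of the 17 transcripts called in DMSO, in DMSO (x axis) and in rosiglitazone (y axis), with the dashed line marking equal change. Red points are the 4 with at least 0.2 TPM in all 7 DMSO libraries, 2 of which coincide, and lie near the line. Open blue squares are the 13 at under 0.2 TPM in all libraries of 1 DMSO group, which in rosiglitazone lie between -2.67 and 1.18 in the direction seen in DMSO.

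The KO libraries of the 2 sample-number ranges were also set separately against the same 3 WT libraries, as a description, since these transcripts were chosen on all 4 KO libraries. With KO replicates 1 and 2 and then with replicates 3 and 4, the log2 fold change was 2.73 and 2.21 for uc008vwh.1, -1.70 and -1.57 for uc008vsh.3, and -1.93 and -2.15 for uc012dpf.2. With the number range as a covariate in limma, uc008vwh.1 was still called (adjusted p = 0.0201), while uc008vsh.3 (0.183) and uc012dpf.2 (0.0670) were not. The range with 19 and 20 holds no WT library, so that fit took its genotype estimate from KO replicates 1 and 2 alone. Its log2 fold changes were those given above for these 2 replicates. Without sample numbers 19 and 20, uc008vwh.1 (limma adjusted p = 0.0391) and uc012dpf.2 (0.0390) were still called, and uc008vsh.3 was not (0.0983).

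Among the 8211 tested transcripts with a mean of at least 10 TPM, 0 were called by limma, and the smallest adjusted p was 0.0580, that of uc008vos.2. An unadjusted p under 0.05 was found for 240 of them, 2.92% against 3.59% of all tested transcripts. The log2 fold change was at least 1 in size for 72. The median half-width of the unadjusted 95% confidence interval of the log2 fold change was 0.36 for these transcripts and 0.61 for the 13167 with means between 1 and 5 TPM. These widths are not the reach of the adjusted test. The smallest called change was 1.63, which is no limit of the test, since a call also depends on the SE. The abundant uc008vot.2 came near the threshold at -0.72 (SE 0.09, limma adjusted p = 0.0599).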

How the data were processed

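RNA was sequenced from carotid artery, and the authors deposited 1 table of TPM values per transcript and library. The builds GRCm38 and mm10 and the tools kallisto, sleuth and FastQC appear in the submitters' processing notes, without versions. Annotation and settings were not given in the sources used here. Columns were matched to samples by the number shared by the header and the sample description. All 14 columns were matched, and 0 columns of values were left unused.

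Rows reaching 1 TPM in 3 or more of the 7 DMSO libraries were tested two-sided on log2(TPM + 1) with limma 3.58.1 (R 4.3.3), fitting these 2 groups alone. Variances were moderated with an abundance trend, and p-values adjusted by Benjamini-Hochberg over every row tested. The same rows were fitted in the rosiglitazone groups alone, and the interaction over all 14 libraries. Scripts were tested on simulated data. Plots used matplotlib 3.10.9 in Python 3.11.15.

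The members, the identifier range and the rules were chosen with earlier results of these data known. Named transcripts are, inside and outside the range, the 2 per direction with the largest called changes, filled by the smallest p where fewer were called, and the 2 transcripts on each side of the range's edges. Gene lists and cell type markers were not tested, because no identifier matched a gene. Alternatives covered the pseudocount, filters, scaling, variance model, weights, replicate block, sample numbers, identical rows and left-out libraries. After seeing the data, 3 were added: dropping rows at 0 in 3 or more libraries, median-centring the libraries, and leaving out each rosiglitazone library.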

Additional observations from a re-analysis of the deposited data

Results flagged for a closer look

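KO DMSO replicate 4 stood apart from the other 3 KO DMSO libraries in how many transcripts reached 1 TPM (gap to the nearest library divided by the range, 0.875), in its median-of-ratios size factor (0.899) and in the median of its Spearman correlations to the others (0.886). Its TPM of uc008vot.2 was also apart (0.955, 222 TPM against 193 to 194 TPM). For uc012dpf.2 it was KO DMSO replicate 3 that stood apart, with 1.49 TPM against 2.38 to 2.49 TPM (0.888). The critical value for 4 samples is 0.829. It was passed by 5 of 23 sets of 4 values. Chance gives about 1 in 20, and several sets describe the same library.

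The genotype effect on uc033hga.1 differed between treatments by 6.06 on the log2 scale (limma interaction over all 14 libraries, SE 0.42, adjusted p = 5.1e-05). Of all 27124 transcripts tested for this, 2 passed. Transcript uc033hga.1 was named for its DMSO difference and passed the filter through WT alone. The interaction reuses those DMSO values, so its p describes a chosen transcript and is no separate test.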

How the results depend on the processing

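In place of 17 calls there were 11 with a pseudocount of 0.1 (10 of them among the 17), 9 with 5 (8 outside the stretch), 10 with the sample-number range as a covariate (9 outside, 6 among the 17), 5 without transcripts listed at 0 in 3 or more libraries (4 outside), 1 with at least 1 TPM required in all 7 libraries (1 outside) and 0 with at least 5 TPM in 3 libraries (0 outside, 438 at an unadjusted p under 0.05). Without a filter there were 22 (21 outside, 11 among the 17), and a fit over all 14 libraries gave 15 (10 outside, 8 among the 17). Inside the stretch, the 2 calls became 1 with a pseudocount of 0.1, 0.5 or 5, without a filter, with robust moderation, without sample numbers 19 and 20, with the number covariate and without transcripts listed at 0. They became 0 with either stricter TPM filter, 4 with median-of-ratios scaling, quantile normalization, median-centring or transcripts over 5000 TPM removed, and 5 in a fit over all 14 libraries. Leaving out 1 library gave 2 to 17 calls, 0 to 2 inside and 2 to 15 outside. Replicate numbers did not pair the libraries (correlations of deviations 0.06, 0.04 and 0.00). As a fixed replicate block they gave 0 calls, inside and outside (limma, 1114 at an unadjusted p under 0.05), and as a random replicate block 19. No WT library shares the number of KO replicate 4, so the fixed block took it out of the genotype estimate. That fit also left little from which to estimate spread, so its 0 calls do not show that differences were absent. Among the 17, the number with the same sign with rosiglitazone ranged from 9 to 13, and 5 also had an unadjusted p under 0.05, over the alternatives run for this count (pseudocounts 0.1 and 5, the fit over 14 libraries, without sample numbers 18 and 21, and each rosiglitazone library left out). Of the 9 transcripts plotted by library, none changed sign under the alternatives that tested it. The other edge transcripts were not refitted. TPM hides depth, so no counting limit can be given.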
